A study of Mus musculus with 1 sample.

Results

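Interferon gamma signalling was followed through 9 genes in single cells of mouse MC38 tumors: the ligand Ifng, the receptor chains Ifngr1 and Ifngr2, the targets Irf1, Gbp2, Gbp5, Igtp and Iigp1, and the feedback inhibitor Socs1. They were chosen by name, as 9 of the 32285 genes counted in the library. Interferon gamma is a cytokine made mainly by activated T and NK cells. It binds a receptor of both chains, and the receptor's kinases JAK1 and JAK2 start the response. Promoters of target genes often hold GAS or ISRE-type motifs, and IRF1 is a transcription factor that binds the latter. Gbp2 and Gbp5 encode guanylate-binding proteins and Igtp and Iigp1 immunity-related GTPases, which defend cells against intracellular microbes, while SOCS1 inhibits the receptor's kinases. In tumors the cytokine can reach macrophages, fibroblasts and the tumor cells themselves.

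The data are 1 library of UMI counts, the number of distinct transcripts captured per gene and cell (10x Genomics, v3.1 chemistry for 3' ends). Its cells came from 5 control MC38 tumors, a mouse colon carcinoma line grown in female C57BL/6J mice of 4 to 6 weeks, and were pooled in equal parts before capture. The genotype is labelled WT and no shRNA is named. It was taken as the pool with the non-targeting shRNA (shNTC), and the Atp6v0a1 knockdown pool was not analysed here. Cells cannot be traced to a mouse, so there were no replicates and no test, and every 95% interval covers counting error only.

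Of 5307 called cells, 667 exceeded 20% mitochondrial UMIs, 172 were removed as doublets and 4468 were kept. Cells were clustered without the 9 genes and without 7 lists of related interferon and antigen presentation genes, so that their levels did not define the groups, although interferon-inducible genes outside the lists took part. The groups that carry the results were T and NK-like cells (147 cells, median 4498 UMIs), macrophage-like (1400, 9786), monocyte-like (141, 3770), DC-like (40, 10532) and Col1a1-high cells (39, 7700), and Rhox5-high cells (1820, 38335). Rhox5-high cells are the clusters with high Rhox5 and Shisal2b and almost no Xist, which in a female host sets them apart from host cells. The label calls the tumor cells epithelial, but the Rhox5-high cells held 1 UMI of Epcam, 7 of Krt8, 0 of Krt18 and 13 of Cdh1. The Col1a1-high cells had Col1a1 at 9846 CPM (UMIs of a gene per 1000000 UMIs of the group) and 7 of 8 listed fibroblast genes raised, but also all 5 listed pericyte genes, with Rgs5 at 1344 and Notch3 at 78.1 CPM. Their 10 leading genes held Notch3, Higd1b and Kcnj8 and no gene of the fibroblast list, so they are named by Col1a1 and not as a cell type. Rgs5 or Notch3 was found in 9 of the 39 cells. The 10 leading genes of the monocyte-like cells held Iglc2, Iglc3, Ly6d, Cd79a and Mzb1, genes of B-lineage and plasmacytoid cells, beside the monocyte genes Chil3 and Ly6c2. Cd79a was found in 2 of the 141 cells, and without these 2 none of those 5 genes was among the leading 10, whereas Ly6c2 was found in 116 cells. A further 79 myeloid cells and 802 mostly shallow cells (median 911 UMIs) met no list and are not described. Rhox5, which only tumor cells should express, was at 695.5 CPM in Rhox5-high cells, 53.1 in T and NK-like, 40.7 in macrophage-like, 76.0 in monocyte-like and 101 in Col1a1-high cells. This free or carried-over tumor RNA was not removed from the values below. Subtracting Rhox5-high RNA at the level of Rhox5, a setting chosen after seeing the data, left the main results taken against Rhox5-high cells within their counting intervals. It was applied to those results alone. The Ifng share and level and the monocyte-like and Arg1-state comparisons were thus not tested for carried-over tumor RNA.

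A promoter was in the RefSeq table (GRCm38.p6) for 8 of the 9 genes, all but Iigp1, and the 250 bases before the RefSeq transcription start were searched on both strands for the GAS letters TTCNNNGAA and for the ISRE-type letters GAAANNGAAA. Of 32851 promoters, 7.02% held the first and 2.98% the second. Irf1, Gbp2, Gbp5, Igtp and Socs1 each held at least 1 of these, Ifng held 1 GAS match and the receptor chains none. The 5 promoters are shown because these genes are the readout of the response below, with the matched letters in capitals, and a match is a run of letters and not a known site. They lie at chr3:142620413-142620662 (Gbp2, plus strand), chr3:142496684-142496933 (Gbp5, plus strand), chr11:58199306-58199555 (Igtp, plus strand), chr11:53769764-53770013 (Irf1, plus strand, the first of 2 promoters in the table) and chr16:10785537-10785786 (Socs1, minus strand).
Gbp2: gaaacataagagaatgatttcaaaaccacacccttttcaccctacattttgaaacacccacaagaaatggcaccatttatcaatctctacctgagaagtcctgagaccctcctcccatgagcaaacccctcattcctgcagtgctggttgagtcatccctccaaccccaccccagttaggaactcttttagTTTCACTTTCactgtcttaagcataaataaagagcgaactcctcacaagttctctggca
Gbp5: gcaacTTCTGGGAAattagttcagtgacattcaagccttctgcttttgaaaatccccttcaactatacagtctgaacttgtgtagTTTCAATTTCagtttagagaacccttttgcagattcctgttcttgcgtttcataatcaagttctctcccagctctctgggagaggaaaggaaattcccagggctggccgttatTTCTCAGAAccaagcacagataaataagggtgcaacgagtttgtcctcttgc
Igtp: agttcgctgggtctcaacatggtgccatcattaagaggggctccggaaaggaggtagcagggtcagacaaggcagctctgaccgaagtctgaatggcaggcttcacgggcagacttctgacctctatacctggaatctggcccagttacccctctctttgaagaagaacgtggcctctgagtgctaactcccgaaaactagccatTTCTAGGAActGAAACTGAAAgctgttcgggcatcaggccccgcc
Irf1: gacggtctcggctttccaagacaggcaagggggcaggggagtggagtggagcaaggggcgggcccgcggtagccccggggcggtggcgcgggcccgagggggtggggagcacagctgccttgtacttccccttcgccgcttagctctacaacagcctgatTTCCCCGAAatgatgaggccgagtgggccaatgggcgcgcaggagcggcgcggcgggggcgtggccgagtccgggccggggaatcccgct
Socs1: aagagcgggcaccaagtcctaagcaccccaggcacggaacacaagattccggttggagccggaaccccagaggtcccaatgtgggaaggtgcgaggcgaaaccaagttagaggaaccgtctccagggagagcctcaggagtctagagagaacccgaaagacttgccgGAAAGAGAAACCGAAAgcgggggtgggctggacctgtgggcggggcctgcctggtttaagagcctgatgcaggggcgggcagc
Gbp2 held an ISRE-type match that began 59 bases before the start and no GAS match. Gbp5 held both kinds, with 2 GAS matches at 245 and 52 bases and an ISRE-type match at 165 bases. Igtp also held both, side by side at 45 and 34 bases. Irf1 held 1 GAS match at 90 bases and no ISRE-type match. Socs1 held 2 overlapping ISRE-type matches at 83 and 77 bases. The genes themselves lie on chromosome 3 (Gbp2 from 142620602 to 142638008 and Gbp5 from 142493978 to 142522344), 11 (Igtp from 58199556 to 58207591 and Irf1 from 53770014 to 53778374) and 16 (Socs1 from 10782240 to 10785536) in the GENCODE M21 annotation of GRCm38. Igtp overlaps Irgm2 on the same strand and Ifng the uncharacterised Gm49751 likewise, Irf1 overlaps Gm17334 on the other strand, and Gbp and GTPase genes have close copies, so reads shared with a neighbour or a copy make these counts less certain.

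Ifng came almost entirely from T and NK-like cells. These cells held 537 of the 550 Ifng UMIs of all kept cells (97.6%, exact Clopper-Pearson interval 96.0% to 98.7%), a level of 679 CPM (exact Poisson interval 623 to 739). The 1400 macrophage-like cells held 0 UMIs in a total that allows at most 0.205 CPM (3 counts), and the monocyte-like, DC-like and Col1a1-high cells held 0 as well, with limits of 4.56, 6.97 and 6.33 CPM. Rhox5-high cells held 11 UMIs in 11 cells, or 0.145 CPM (0.0721 to 0.259). Outside the T and NK-like cells the gene was thus found as single UMIs in 13 cells, of which 2 also had a UMI of a Cd3 gene or Ncr1. Ifng was detected in 23.1% of T and NK-like cells (16.6% to 30.8%) against 0.604% of the much deeper Rhox5-high cells. With each cell thinned to 1000 UMIs the shares were 7.87% of 127 T and NK-like cells (20 shallower cells left out) and 0.11% of 1818 Rhox5-high cells (2 left out).

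Within the T and NK-like cells the gene was concentrated in very few cells. One cell held 345 of the 537 UMIs (64.2%), the next held 69, 26, 16 and 11, and these 5 cells together held 87.0%. The median among the 34 cells with the gene was 2 UMIs. The cell with 345 UMIs had 7838 UMIs in all, so Ifng was 44016 CPM of its RNA, and it had 1 UMI of Cd3e, 2 of Cd4 and 0 of Foxp3, Rhox5 and Lyz2. Without it the T and NK-like level was 245 CPM (212 to 282) and their share of all Ifng UMIs was 93.7%. The level of Ifng in the group is therefore set mostly by 1 cell, whereas its source in T and NK-like cells is not.

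**Figure D1:**
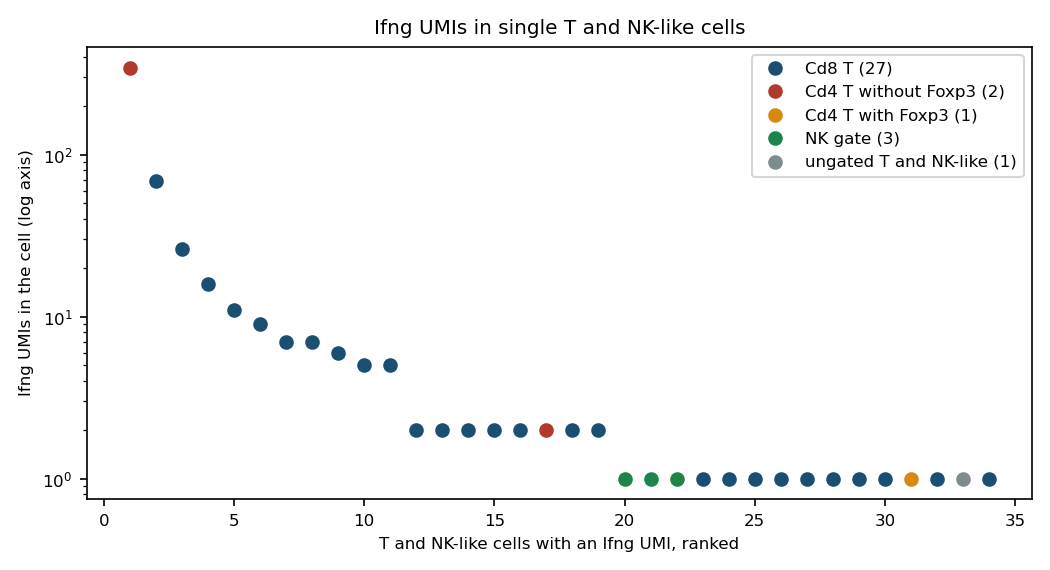
Ifng UMIs in each of the 34 T and NK-like cells with the gene, ranked on the horizontal axis, with UMIs on a log axis and cells coloured by gate (number of cells with Ifng in brackets). The first cell, a Cd4 T cell without Foxp3, holds 345 UMIs, and the others range from 69 UMIs down to 1.

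Split by marker UMIs, Cd8 T cells (a Cd3 gene and Cd8a or Cd8b1, no Cd4; 57 cells) held 185 Ifng UMIs in 27 cells, 479 CPM (413 to 553). Leaving out the cell with 345 UMIs, they held 96.4% of the Ifng UMIs of T and NK-like cells. Cd4 T cells without Foxp3 (14 cells) held 347 UMIs in 2 cells, of which 2 UMIs remained without that cell. Cd4 T cells with Foxp3, a gate for regulatory T cells (9 cells), held 1 UMI, and NK cells (no Cd3 gene and a UMI of Ncr1, Klrb1c or Klre1, 13 cells) held 3 in 3 cells, 19.9 CPM (4.09 to 58.0). Ifng was thus found in 47.4% of Cd8 T cells (median 5896 UMIs) and in 23.1% of NK cells (median 14255 UMIs), with overlapping intervals of 34.0% to 61.0% and 5.04% to 53.8%. The 31 T and NK-like cells with at least 3 of the 5 exhaustion genes Pdcd1, Lag3, Havcr2, Tigit and Tox had Ifng at 713 CPM on 164 UMIs, and the other 116 had 665 CPM on 373 UMIs, of which 345 lay in that 1 cell. Without it the 116 cells had 28 UMIs, 50.6 CPM (33.6 to 73.1). Without the cell with 69 UMIs the 31 cells had 425 CPM (344 to 519). These 31 cells had a median of 6568 UMIs, and their leading genes held Cd8a and Cd8b1, while the 116 had a median of 3834 UMIs. The part of the Cd8 gate and of depth in this difference was not tested.

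Likeness to Ifng was ranked across 18 cell groups of at least 20 cells, among genes outside the interferon and antigen presentation lists. The listed regulators of Ifng were thus not ranked. The genes whose levels were most like those of Ifng were Gimap7, Zap70, Cd8a, Pdcd1 and Klrc1, with Pearson r of log2(CPM + 10) between 0.991 and 0.994. These genes mark T or NK cells, and the likeness rests on that 1 group. The regulators listed as upstream of Ifng were at least 2 times higher in T and NK-like than in Rhox5-high cells for 7 of 10 measured and at least 2 times lower for 3, beside 19.1% and 32.7% of 13123 genes. Stat4, Il18r1, Il12rb2 and Tbx21, which carry or answer interleukin 12 and 18 signals, were at 80.9, 77.1, 29.1 and 29.1 CPM in T and NK-like cells and at 0.131, 0.0920, 0.0394 and 0 CPM in Rhox5-high cells, where 0 allows up to 0.0394 CPM. Of the cytokines, Il12b was at 23.2 CPM in DC-like cells. It was also a leading gene of the largest macrophage-like cluster against the other macrophage-like cells. Il18 was found mainly in macrophage-like (26.8 CPM) and monocyte-like cells (35.0), and Il12a in none of the 6 groups.

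The receptor chains divided the groups in different ways. Ifngr1, the ligand-binding chain, was highest in T and NK-like cells at 460.1 CPM (414 to 510, 364 UMIs), followed by DC-like cells at 304 (254 to 361), monocyte-like at 181 (149.9 to 216), macrophage-like at 126 (119.9 to 132), Col1a1-high at 84.4 (60.3 to 115) and Rhox5-high cells at 76.7 (74.8 to 78.7). Only the last 2 neighbours in this order had overlapping intervals. Ifngr2, the chain needed to signal, was lowest in T and NK-like cells, with 7 UMIs in 7 of 147 cells (8.85 CPM, 3.56 to 18.2). It was at 32.4 CPM (31.1 to 33.7) in Rhox5-high, 67.5 (46.2 to 95.3) in Col1a1-high, 81.3 (56.6 to 113) in DC-like, 107 (101 to 112) in macrophage-like and 125 (99.1 to 155) in monocyte-like cells. From the Col1a1-high to the monocyte-like cells neighbouring intervals overlapped.

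Relative to Rhox5-high cells, the T and NK-like cells thus had 6.00 times the Ifngr1 level (exact interval 5.38 to 6.67) and 0.273 times the Ifngr2 level (0.110 to 0.564). The same ratio for Rhox5 was 0.0763 (0.0550 to 0.103), below the interval for Ifngr2. Ifngr2 was found in 3 of 57 Cd8 T cells and in none of the Cd4 T cells, whose few UMIs allow up to 52.5 CPM without and 86.9 CPM with Foxp3. Macrophage-like cells had 1.64 times the Ifngr1 level (1.55 to 1.73) and 3.29 times the Ifngr2 level (3.09 to 3.51) of Rhox5-high cells, and monocyte-like cells 1.44 times the Ifngr1 level of macrophage-like cells (1.19 to 1.73). DC-like cells had 2.42 times the macrophage-like Ifngr1 level (2.01 to 2.89), while their Ifngr2 ratio of 0.763 had an interval that included 1 (0.529 to 1.07).

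**Figure D2:**
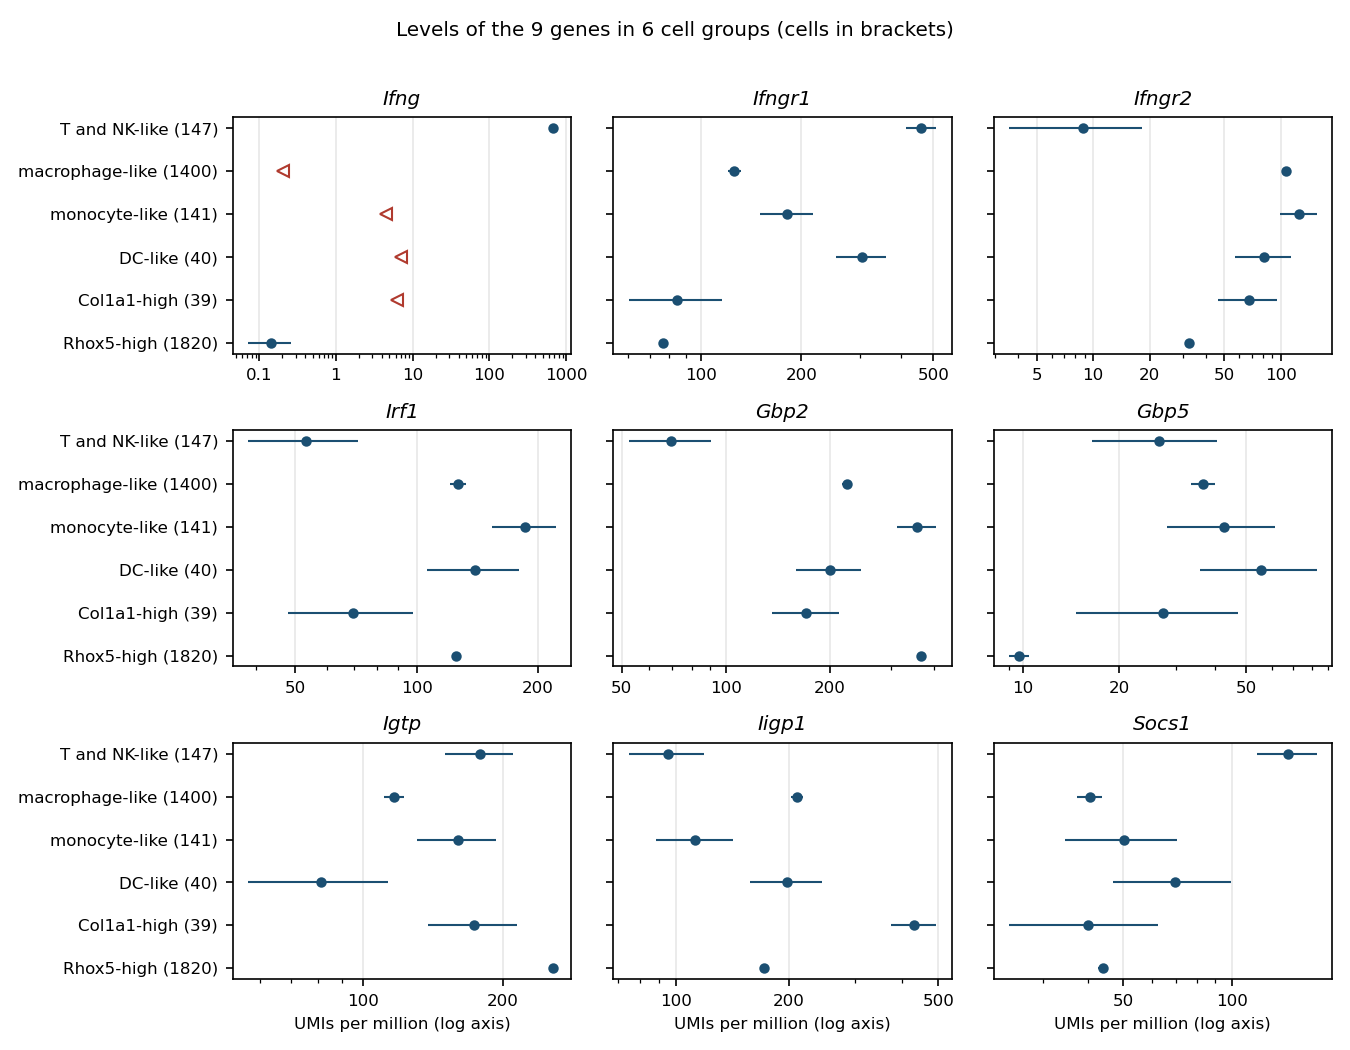
Level of each of the 9 genes (CPM, log axis, a different scale in each panel) in 6 cell groups, with exact Poisson 95% intervals and the number of cells in brackets. Open triangles mark the limit of 3 counts where no UMI was found. Ifng stands at 679 in T and NK-like cells alone, Ifngr2 is lowest and Socs1 highest there, and the targets take a different order in each panel.

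The response genes were present in every group, including those with no Ifng of their own, but their order differed from gene to gene. Against Rhox5-high cells, 1 of the 5 targets was at least 2 times higher in macrophage-like cells and 1 at least 2 times lower, beside 20.8% and 28.4% of the 13675 genes with at least 20 UMIs. The median log2 ratio of the 5 was 0.01, and that of all genes was -0.26. Gbp5 was at 36.7 CPM in macrophage-like and 9.71 in Rhox5-high cells, 3.78 times higher (3.37 to 4.23). Igtp was lower, at 117 against 256 CPM (0.455 times, 0.433 to 0.478), as was Gbp2 at 224 against 367 CPM (0.610 times, 0.588 to 0.632). Iigp1 was 1.22 times higher (1.17 to 1.27) at 209.6 CPM. Irf1 was at 126 and 125 CPM, a ratio of 1.01 (0.959 to 1.06), and Socs1 at 40.4 and 44.0 CPM, a ratio of 0.918 (0.840 to 1.003). The 5 targets thus differed between these cells in both directions. With each cell thinned to 1000 UMIs, at least 2 of the 5 were found in 210 of 1399 macrophage-like cells and in 21.6% of Rhox5-high, 19.9% of monocyte-like, 20.5% of Col1a1-high and 7.87% of T and NK-like cells, against unthinned shares of 75.8%, 95.5%, 61.7%, 59.0% and 40.1% in the same order.

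Of 25 further targets of interferon gamma, 10 were at least 2 times higher in macrophage-like cells and 3 lower (median log2 ratio 0.34). The shares of all genes were 20.8% and 28.4%. The T cell-attracting chemokine Cxcl9 was at 1062 against 119 CPM, while Cxcl10, of like function, was at 522 against 1035 CPM. Ido1, a tryptophan-degrading enzyme, was at 1.09 against 16.9 CPM, and the class II activator Ciita at 50.5 against 0.355 CPM. All 6 class II presentation genes were at least 2 times higher. Of 11 class I genes, 7 were above a ratio of 1, beside 42.0% of all genes, and 1 of them, B2m, was at least 2 times higher. Of 14 measured type I interferon targets, 7 were at least 2 times higher and 2 lower (median log2 ratio 0.98). Of the signalling genes, the kinase Jak2 was at 20.4 against 9.42 CPM and the inhibitor Socs3 at 226 against 23.8 CPM.

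In T and NK-like cells Gbp2, Irf1 and Iigp1 were low. Beside 19.1% and 32.7% of 13123 genes, 1 of the 5 targets was at least 2 times higher than in Rhox5-high cells and 2 were lower, with a median log2 ratio of -0.86 against -0.29 for all genes. Gbp2 was at 69.5 CPM (52.4 to 90.5), 0.189 times the Rhox5-high level (0.143 to 0.246), and Irf1 at 53.1 CPM, 0.424 times (0.305 to 0.573). Iigp1 was at 94.8 CPM (0.552 times) and Igtp at 178 CPM (0.695 times), and Gbp5 at 26.5 CPM (2.73 times, 1.68 to 4.21). Socs1 was an exception, at 143 CPM (118 to 172), 3.25 times the Rhox5-high level (2.67 to 3.92) and 3.54 times the macrophage-like level (2.87 to 4.33). As a group, the T and NK-like cells thus had the highest levels of the inhibitor Socs1 and of Ifngr1 among the 6 groups. They had the lowest levels of Ifngr2, Gbp2, Irf1 and Iigp1. For Irf1 the interval overlapped that of Col1a1-high cells (69.6 CPM, 47.9 to 97.8), and for Iigp1 that of monocyte-like cells (112 CPM, 88.3 to 141). Ifng was found in 34 of these 147 cells, and the other genes were not compared between cells with and without it.

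The T cell gates were not alike. Igtp was at 542 CPM (368 to 769.5) in Cd4 T cells without Foxp3 and 579 (354 to 894) in those with it, against 119 (87.2 to 159) in Cd8 T cells and 39.7 (14.6 to 86.4) in NK cells. Iigp1 stood at 279.8 (159.9 to 454), 289.6 (139 to 533), 41.4 (23.7 to 67.3) and 13.2 CPM (1.60 to 47.8) in the same order. These gates held 14, 9, 57 and 13 cells, and the Igtp values rest on 31, 20, 46 and 6 UMIs. In the Cd4 T cells without Foxp3, 1 cell held 15 of the 31 Igtp UMIs and 1 cell 11 of the 16 Iigp1 UMIs. Without the cell with most UMIs of the gene, that gate had Igtp at 333 (190.1 to 540.1) and Iigp1 at 104 CPM (33.7 to 243), the latter with an interval overlapping that of Cd8 T cells, and the gate with Foxp3 had 425 (226 to 726) and 196 CPM (71.9 to 427). Of 25 further targets, 7 were at least 2 times higher in T and NK-like than in Rhox5-high cells and 9 lower. The shares of all 13123 genes were 19.1% and 32.7%. The protease inhibitor Serpina3g was at 351 against 28.9 CPM, and Cxcl9 at 19.0 against 119 CPM. Jak1, Jak2 and Stat3 were 3.97, 2.95 and 3.58 times higher.

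Col1a1-high cells combined high Iigp1 with low Gbp2. Beside 23.1% and 24.5% of 13030 genes, 2 of the 5 targets were at least 2 times higher than in Rhox5-high cells and 1 was lower, and the median log2 ratio was -0.57 against -0.01 for all genes. Iigp1 was at 430.5 CPM (373 to 494, 204 UMIs), 2.51 times the Rhox5-high level (2.17 to 2.88), and the highest of the 6 groups. Gbp5 was at 27.4 CPM on 13 UMIs (2.83 times), Gbp2 at 171 (0.465 times, 0.369 to 0.579), Irf1 at 69.6 (0.556 times) and Igtp at 173 CPM (0.675 times). Cxcl9 was at 829 CPM, 6.97 times the Rhox5-high level, and Cxcl10 at 272 CPM, 0.263 times. The direction of the median turned with the choice of cells, being 0.64 without a mitochondrial limit and 0.10 where any cell with a UMI of Col5a1 was counted. That last setting took cells of any cluster and compared them with any cell with a UMI of Shisal2b. A cell could be in both groups, so the 0.10 does not describe the Col1a1-high cells alone.

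**Figure D3:**
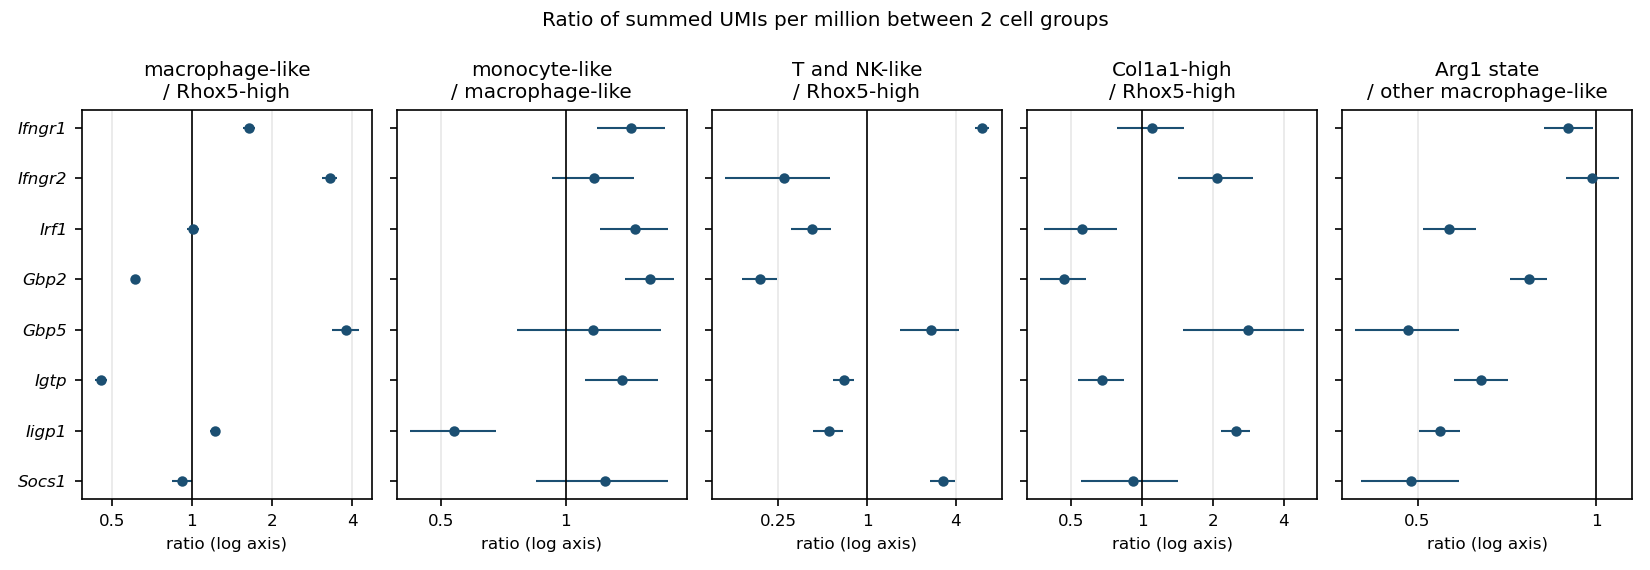
Ratio of the level of 8 genes (all but Ifng) between 2 cell groups in 5 comparisons, on log axes, with exact 95% intervals and a line at 1. In the Arg1-state comparison every gene lies left of 1, Ifngr2 with an interval across it, whereas in the comparisons with Rhox5-high cells the targets lie on both sides.

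Monocyte-like cells differed less from macrophage-like cells. None of the 5 targets differed by 2 times or more, beside 6.09% of 11225 genes higher and 15.3% lower, and the median log2 ratio was 0.45 against -0.07 for all genes. Gbp2 was at 357 against 224 CPM (1.59 times, 1.39 to 1.82), Irf1 at 185 against 126 (1.47 times, 1.21 to 1.76) and Igtp at 159.6 against 117 (1.37 times, 1.11 to 1.67). Gbp5 had a ratio of 1.16 (0.764 to 1.70). Iigp1 was lower, at 112 against 209.6 CPM (0.537 times, 0.420 to 0.676). Cxcl9 was lower as well, at 275 against 1062 CPM, while Isg15, a type I interferon target, was at 144 against 47.0 CPM. Rhox5 was 1.87 times higher in the monocyte-like cells (1.37 to 2.49). Of 14 measured type I targets, 12 were above a ratio of 1, beside 45.9% of all genes, with 1 at least 2 times higher (median log2 ratio 0.60). Of 23 measured further targets of interferon gamma, 9 were above 1, with 1 at least 2 times higher and 3 lower (median log2 ratio -0.20). Of 11 class I genes 8 were above 1 (median 0.17), and of 6 class II genes 0 (median -0.84). The 5 targets and the further targets thus had medians of opposite sign.

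The macrophage states differed in the same direction for all targets. The Arg1-state cluster (496 cells, median 11765 UMIs) was named from Arg1, Spp1, Mmp12, Gpnmb and Fabp5, and had Arg1, which degrades arginine, at 1956 CPM against 292 in the other 904 macrophage-like cells. All 5 targets were lower in it, beside 68.9% of all genes, 1 of them by 2 times or more beside 7.66% of 11143 genes (and 0 higher beside 2.14%). The median log2 ratio was -0.82 against -0.19 for all genes. Gbp5 was at 22.4 against 46.6 CPM (0.481 times, 0.393 to 0.586), Iigp1 at 140.5 against 257.9 (0.545 times, 0.503 to 0.590) and Irf1 at 87.1 against 154 CPM (0.566 times, 0.510 to 0.627). Igtp was at 87.6 against 137 (0.640 times, 0.577 to 0.710) and Gbp2 at 190.3 against 248 CPM (0.769 times, 0.715 to 0.827). Socs1 was also lower, at 24.9 against 51.2 CPM (0.487 times, 0.402 to 0.588). The receptors differed less, Ifngr1 at 118 against 131 CPM (0.897 times, 0.816 to 0.987) and Ifngr2 at 106 against 107 (0.985 times, 0.889 to 1.09).

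In the Arg1 state 7.66% of all genes were at least 2 times lower and 2.14% higher. Of 23 measured further targets, 5 were at least 2 times lower, namely Cxcl9 (576 against 1402 CPM), Cxcl10 (321 against 663), Ciita, Serpina3g and Nlrc5, and 1 was higher. That gene was Nos2, the inducible nitric oxide synthase, at 77.6 against 16.0 CPM (4.84 times, 3.99 to 5.89). The checkpoint ligand Cd274 was also above 1, at 133 against 76.6 CPM (1.73 times). All 6 class II genes were below 1, beside the same 68.9% of all genes (median log2 ratio -0.67). Of 14 type I targets, 3 (Isg15, Ifit2 and Oas2) were at least 2 times lower. Whether the lower levels were particular to interferon gamma targets was not tested. The size of the Arg1-state difference in the 5 targets depended on the clustering. With a finer resolution of 0.8 throughout, the Arg1-state cluster shrank to 112 cells with Arg1 at 3510 CPM, Gbp2 at 85.9 and Iigp1 at 46.3 CPM, and the median log2 ratio was -1.50. At that resolution 2 further clusters of 296 and 98 cells had Arg1 at 1469 and 1736 CPM, and Iigp1 at 136 and 342 CPM, so that Arg1 and Iigp1 did not run opposite to each other in every cluster.

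Among the other macrophage-like cells, the largest cluster (618 cells) had the highest targets, with Gbp2 at 274, Iigp1 at 312, Irf1 at 181 and Gbp5 at 53.3 CPM. The cycling cluster (264 cells, Mki67 at 399 CPM) lay between it and the Arg1 state for these 4 genes, with 214, 189, 119.7 and 38.5 CPM. A cluster of 22 cells with Vsig4, Cd163 and Lyve1, genes of tissue-resident macrophages, had 163, 99.2, 63.8 and 14.2 CPM on 23, 14, 9 and 2 UMIs, and no UMI of Cxcl9 (at most 21.3 CPM). After thinning to 1000 UMIs, at least 2 of the 5 targets were found in 21.2% of the cells of the largest cluster (18.1% to 24.7%), in 15.9% of the cycling cluster (11.7% to 20.9%) and in 7.26% of the Arg1 state (5.13% to 9.91%). The unthinned shares were 79.8%, 82.2% and 68.3%. Median mitochondrial shares were 3.29%, 2.89% and 1.84% in the same order, and the part of these differences in the result was not tested.

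The Rhox5-high cells were not uniform either. Cluster 1 (902 cells, median 54068 UMIs) was the more proliferative, with Mki67 at 105 CPM against 10.9 in cluster 2 (810 cells, 29560 UMIs), which had more Col3a1 (2014 against 721 CPM). All 5 targets were higher in cluster 2, beside 55.9% of all genes, none by 2 times or more beside 5.36% of all genes (and 4.66% lower), with a median log2 ratio of 0.51 against 0.06 for all genes. Iigp1 was at 223 against 140.0 CPM (1.59 times, 1.54 to 1.65), Gbp2 at 457 against 321 (1.42 times, 1.39 to 1.46) and Igtp at 308 against 229 CPM (1.34 times, 1.31 to 1.38). Gbp5 was 1.65 times higher and Irf1 1.09 times. Ifngr1 was 1.82 times higher (1.72 to 1.91), at 108 against 59.5 CPM, whereas Ifngr2 was at 33.6 and 31.7 CPM (1.06 times, 0.975 to 1.15) and Socs1 at 45.3 and 43.1 CPM (1.05 times, 0.978 to 1.13). Cxcl9 was 3.37 times higher in cluster 2, and Cxcl10 was at 1040 and 1027 CPM. All 11 class I genes were above 1, beside 55.9% of all genes (median log2 ratio 0.24). So were 23 of 25 further targets of interferon gamma (median 0.55) and all 14 measured type I interferon targets (median 0.69). The higher levels were thus not particular to the 5 targets. With each cell thinned to 1000 UMIs, at least 2 of the 5 targets were found in 17.8% of the cells of cluster 1 (15.4% to 20.5%) and 25.2% of cluster 2 (22.2% to 28.3%), and Iigp1 in 12.9% and 19.8%. The unthinned shares for 2 targets were 97.9% and 96.8%, in the order of depth.

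Cluster 3 of the Rhox5-high cells (108 cells) had a median of only 3489 UMIs, 7.86% mitochondrial UMIs and noncoding RNAs among its leading genes. Against cluster 1, 3 of the 5 targets were at least 2 times higher, beside 43.5% of all genes (and 17.3% lower), so most genes read higher in these shallow cells, with a median log2 ratio of 1.24 for the targets and 0.73 for all genes. Iigp1 was at 702 CPM (627 to 783), 5.01 times the level of cluster 1, and Irf1 at 284 (2.35 times) and Gbp5 at 44.0 CPM (5.67 times), whereas Gbp2 at 306 CPM did not differ beyond counting error (0.953 times, 0.801 to 1.13). Iigp1 was also at 455 CPM in the 667 cells removed for their mitochondrial share. Both sets of cells thus had high Iigp1 and a high mitochondrial share, by which the 667 cells were chosen. Col1a1-high cells, with the highest Iigp1 of the 6 groups, had a median mitochondrial share of only 0.767%. The part of cell quality in these levels was not tested.

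**Figure D4:**
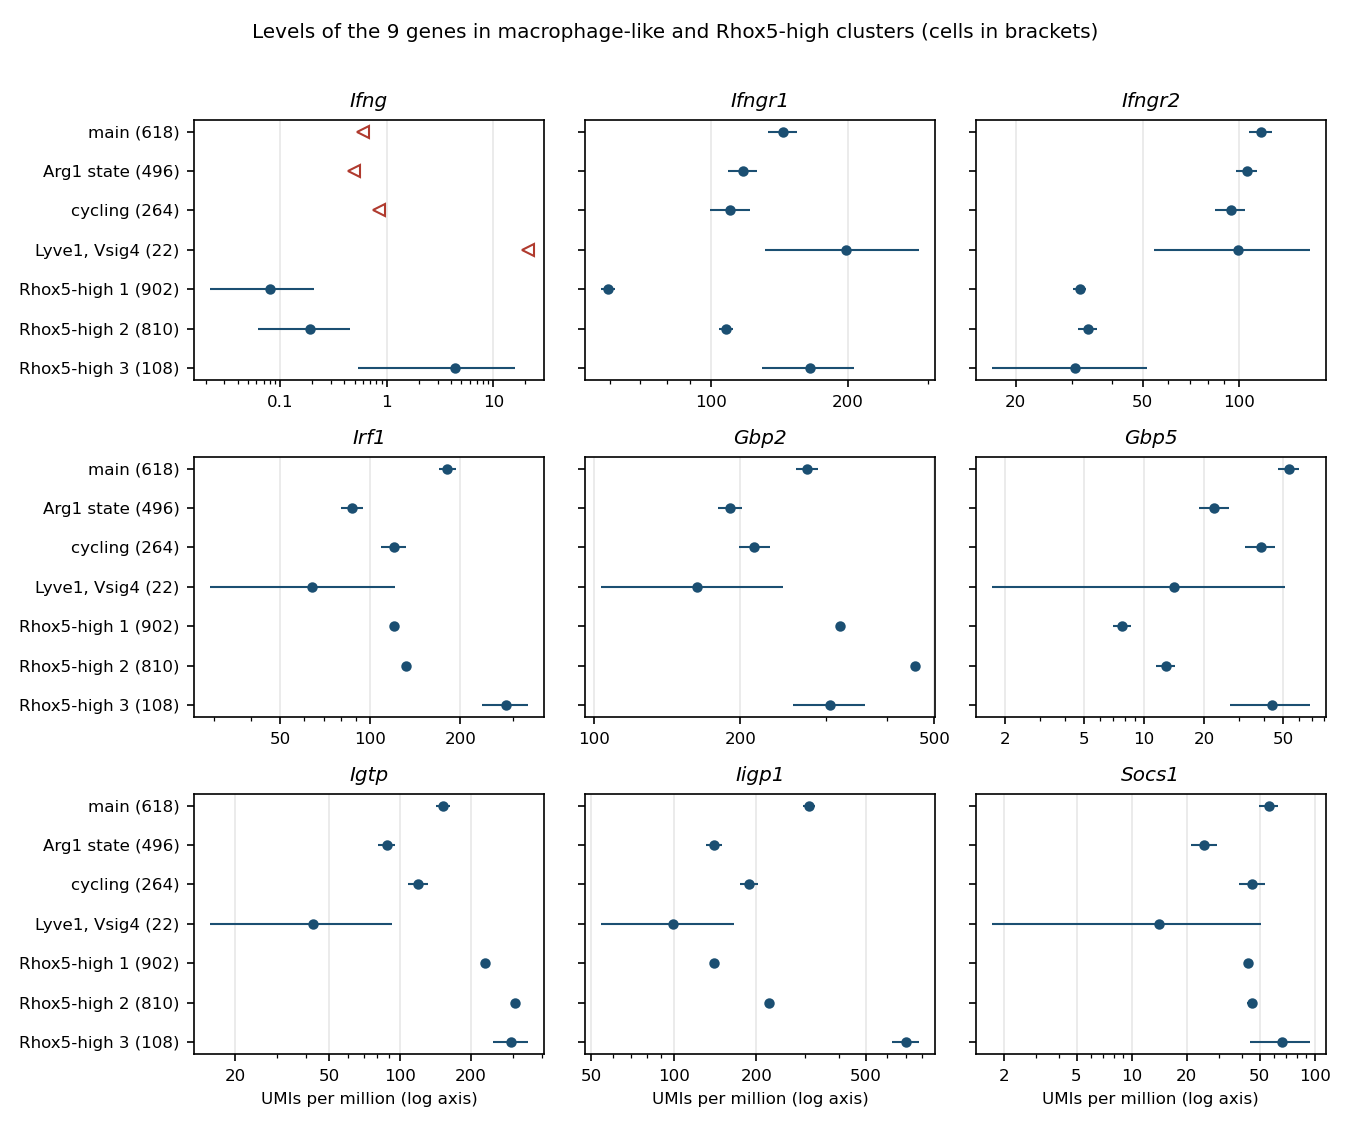
Level of each of the 9 genes (CPM, log axis, a different scale in each panel) in 4 macrophage-like and 3 Rhox5-high clusters, with exact Poisson 95% intervals and the number of cells in brackets. Open triangles mark the limit of 3 counts. The targets are lower in the Arg1 state than in the main and cycling clusters, and Iigp1 is highest in Rhox5-high cluster 3 at 702. Among the macrophage-like clusters the targets are lowest in the Lyve1, Vsig4 cluster, on few UMIs.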

How the data were processed

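Counts of UMIs per gene and called cell, without normalization, were deposited by the authors for 1 library. The matrix header names cellranger 5.0.1, the methods CellRanger V3 with GRCm38/mm10, and the labels also list FastQC and Seurat. The counts covered 32285 genes and summed to 106631000 UMIs, from 511 to 231902 per cell (median 9248). Levels were summed UMIs per 1000000 UMIs of a group (CPM). Cells needed 200 genes and at most 20% mitochondrial UMIs. Doublets were scored against 2 simulated doublets per cell and removed at 0.8% per 1000 cells. After scaling to 10000 UMIs and log transformation, 2000 variable genes, 30 principal components, 20 nearest neighbors and Leiden clustering at 0.5 gave the clusters, and myeloid cells were clustered again (1000 genes, 15 components, 0.5).

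A cluster took a marker list's name when at least 3 listed genes had 5 UMIs and 2 times the level of the other cells and 50% of its cells had 2 of the genes (1 in myeloid subclusters). A macrophage state needed 3 listed genes at 1.5 times the other macrophage-like cells. Rhox5-high clusters had Rhox5 and Shisal2b at 5 times the myeloid level and Xist at most 0.2 times. The members, lists and alternatives were chosen with earlier results of these data known. The naming rule had 4 forms, and 4 myeloid resolutions (0.5, 0.8, 1.0 and 1.2) were viewed with the levels of Gbp2, Iigp1 and Cxcl9 per cluster before the rule was settled. A resolution of 0.8 was used as the main setting for a time and set back to the planned 0.5, under which the Arg1-state difference is smaller. Set after those values were seen were the leading-gene condition for monocyte, DC and granulocyte names, the Xist condition, the division of a cluster that met both the monocyte and the DC list, and leaving its remaining 79 cells unnamed, since mast cell proteases led them. The Col1a1-high cells met the fibroblast list but are not named by it, since no listed gene was among their leading genes.

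With 1 library no test and no p-value was possible. Intervals were exact at 95% (Clopper-Pearson for shares, Poisson for counts, conditional for ratios), and a count of 0 was given the limit of 3 counts. Across-gene ratios used genes with at least 20 UMIs in both groups together, and the ratio step was tested on simulated data. Named genes were the 9 members and examples from the lists. Mx1 and Mx2 were not analysed here, and a signalling gene and a split of T cells by a further list are not reported here. Likeness used genes with at least 100 UMIs that were not in the interferon and antigen presentation lists. Alternatives were the interferon lists kept among the variable genes, other limits on mitochondrial UMIs, genes and doublets, other resolutions, variable genes, components and seeds, CPM averaged over cells, thinning to 1000 UMIs, single markers, and leaving out the 5 cells with most UMIs. Clustering used leidenalg 0.10.2 on Python 3.11.15, intervals used scipy 1.17.1, and components scikit-learn 1.9.0.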

Additional observations from a re-analysis of the deposited data

Results flagged for a closer look

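Ifng was also found among cells that the comparisons leave out. The 667 cells above the mitochondrial limit (median 4887 UMIs) held 4 Ifng UMIs in 4 cells, 1.13 CPM (0.307 to 2.88), just above the limit of 3 counts. One of these cells also had a UMI of a Cd3 gene or Ncr1. The 172 cells removed as doublets held 1 Ifng UMI.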

How the results depend on the processing

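Of 194 values of the 10 results under alternatives, 167 lay within the counting interval of the reported value, 25 outside it and 2 reversed. For a median of the 5 targets, this was the interval of the middle gene, which covers the counting error of that gene alone. The share of Ifng UMIs in T and NK-like cells (97.6%) was 89.7% without the 5 cells with most Ifng UMIs in each group and 93.7% without the 1 cell with most. Their Ifng level (679 CPM) was 96.3 and 245 CPM in these settings, 477 as a mean over cells, 575 after thinning and 326 with single markers. With single markers (any UMI of Adgre1, Shisal2b, Cd3e or Ncr1, or Col5a1) the log2 ratios were 0.45 for Ifngr1 (reported 0.71), 1.23 for Ifngr2 (1.72), 0.83 for Socs1 (1.70), -0.48 for the target median in T and NK-like cells (-0.86) and 0.10 for that in Col1a1-high cells (-0.57, reversed). Single-marker groups took cells of any cluster, and a cell could be in both groups of a comparison. Without a mitochondrial limit the Col1a1-high median reversed to 0.64. The mean over cells gave 0.50 for Ifngr1 and -0.094 for the median in macrophage-like over Rhox5-high cells (0.01), which had an interval on both sides of 0 and was negative in 9 of 20 alternatives. Thinning gave 1.61 for Ifngr2 and 2.18 for Socs1. Without the 5 cells with most UMIs of each gene, Socs1 was 1.39, the T and NK-like median -1.43 and the Col1a1-high median -1.35. The Arg1-state median (-0.82) was larger in size in 6 alternatives, at -1.51 with at least 500 genes, -1.02 and -1.50 at resolutions of 0.3 and 0.8, -1.49 with 3000 variable genes, -1.58 with 20 components, and -1.47 with 0.8 in myeloid cells alone, and it was negative in all 19. The monocyte-like median stayed within its interval in all 17 alternatives that gave a value. These counts include settings that could not move the result. The settings without 1 cell, without Rhox5-high cluster 3 and with tumor RNA subtracted do not touch the monocyte-like and Arg1-state medians. Such unmoved values are also among the 167. Chosen after seeing the data were the settings without 1 cell, with 0.8 in myeloid cells alone, with the mixed cluster undivided (Ifngr1 0.81), with the unnamed myeloid cells counted as macrophage-like, without Rhox5-high cluster 3, with tumor RNA subtracted at the level of Rhox5 (T and NK-like median -0.96, Col1a1-high median -0.69, Ifngr2 1.78), and without the 2 monocyte-like cells with Cd79a (0.45, as reported) or the 9 Col1a1-high cells with Rgs5 or Notch3 (-0.71). The cause of these moves was not tested. Where an alternative left no monocyte-like, Col1a1-high or Arg1-state group, or no share, it gave no value. No paired analysis was possible because there was 1 library. The groups of 39 to 147 cells limit what a count of 0 or of a few UMIs can show, and the pool does not show variation between mice.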

Other observations

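Of the type I interferon genes, Ifnb1 and Ifna4 alone were looked at. Ifnb1 was at 0.753 CPM in macrophage-like cells (11 UMIs) and Ifna4 had no UMI in any of the 6 groups, whereas the type I receptor chains Ifnar1 and Ifnar2 were at 72.3 and 199.8 CPM in macrophage-like and 20.1 and 65.5 CPM in Rhox5-high cells. Il27 and Ebi3, the chains of interleukin 27, were at 12.8 and 31.6 CPM in macrophage-like cells and at 0.263 and 0.236 CPM in Rhox5-high cells.

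Across the 18 groups, likeness to the mean of the 5 targets was ranked among genes outside the interferon and antigen presentation lists. The most like were Ubr4, Elac1, Ift122, Unk and Smurf1, with Pearson r between 0.783 and 0.834. The listed interferon targets were not ranked, so whether they are more like the mean is not shown. The points share 1 library and differ in depth, and this is a description only.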
